A study of Mus musculus with 8 samples.

Results

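The 2 mouse embryonic stem cell lines that carry an Hprt mutation were set against the 2 lines that do not, on all 8 expression arrays of the series. A gene was kept when all 4 arrays of one side lay above all 4 arrays of the other, with 1 probe set per gene, the one with the highest mean over the 8 arrays. This held for 2172 of 18193 genes (11.9%). The gap is the distance between the lowest array of the higher side and the highest array of the lower side, on the log2 intensity scale. Because these values chose the genes, gaps and side differences are given as a description.

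The Hprt-mutant side held the Hprt knockout, with genotype HPRT -/- and no Gtf2i mutation in its label, and the trap line, a gene-trap derivative of the AB2.2 stem cell line with genotype HPRT -/-:GTF2I +/-. The Hprt-intact side held the exon 2 mutant, made by gene targeting in R1 stem cells, with genotype Δexon2/+ of Gtf2i, and a wild-type line that the labels do not name. Gtf2i encodes the transcription factor TFII-I, so each side had a line with a Gtf2i mutation and a line without one. The parental line of the Hprt knockout is not named either, and each line is a single line with 2 arrays. All cells grew on a feeder layer in medium with LIF and Knockout Serum Replacement. The trap line and the exon 2 mutant differ in parental line, the backgrounds of the other lines are not given, and arrays of the exon 2 mutant have accessions apart from the rest. Line background therefore cannot be told apart from the Hprt mutation.

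Hprt encodes hypoxanthine-guanine phosphoribosyltransferase, which returns the free bases hypoxanthine and guanine to the nucleotides IMP and GMP and spends phosphoribosyl pyrophosphate to do so. Cells without it depend on building purines anew or on the adenine and adenosine routes of Aprt and Adk. The gene lies on the X chromosome, its loss can be selected for with thioguanine, and Hprt-deficient stem cells have therefore long served as parent lines for gene targeting. In humans its deficiency causes Lesch-Nyhan disease.

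Arrays of the same line correlated at 0.997 to 0.998 across genes. The Hprt knockout and trap arrays correlated with each other at 0.888 to 0.889, below the 0.967 to 0.969 between exon 2 mutant and wild-type. Arrays of opposite sides correlated at 0.866 to 0.979, so some were more alike across the sides than the lines within either side. Stem cell markers were bright throughout, with a mean log2 intensity over 10 markers of 12.36 to 12.39 in the Hprt knockout, 12.26 to 12.28 in the trap line, 12.11 to 12.16 in the exon 2 mutant and 11.87 in wild-type. Feeder fibroblast markers set the Hprt knockout apart. The mean over 27 of them was 7.25 in the Hprt knockout, with 11.74 in the trap line, against 11.48 to 11.52 in the exon 2 mutant and 12.11 to 12.13 in wild-type. Summed as linear intensities, they came to 8100 to 8200 in the Hprt knockout, with 150500 to 150700 in the trap line, against 134100 to 136200 in the exon 2 mutant and 197400 to 198500 in wild-type. The Hprt knockout arrays read Lum, Fap and Vcam1 below the filter level. Fewer feeder cells and less RNA per feeder cell cannot be told apart in such samples. The trap line lay between both Hprt-intact lines in its feeder level, so counts without the Hprt knockout line are given beside the main gene groups below.

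Of the separated genes, 1572 were higher on the Hprt-mutant side (8.64% of all genes) and 600 were lower (3.3%). Genes were tested when at least 2 arrays read above their own 40th percentile, which left 13819. Among these 2011 were separated (14.6%), 1457 higher (10.5%) and 554 lower (4.01%), and 161 separated genes lay below the filter. The split between directions depended on the scaling. With cyclic loess between arrays 1125 genes were higher (8.14%) and 848 lower (6.14%) above the filter. List counts under cyclic loess below stand against these shares. Of the separated genes, 985 higher and 499 lower ones remained so under cyclic loess, and 0 changed direction. The median difference of side means over all tested genes was 0.07 log2 as deposited and 0.00 under cyclic loess.

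Most gaps were small. The median gap was 0.09 log2 for the higher genes and 0.12 for the lower ones, while the median differences of side means were 0.41 and -0.60. A gap of at least 0.5 was found for 60 higher and 64 lower genes, and a gap of at least 1 for 10 and 11. For 155 higher and 36 lower genes the gap was larger than the range of the arrays within either side. Just inside the rule lay Sox3, with a gap of 4e-07, and Glipr1, with a gap of 0.001 in the lower direction. Txn1 and Wdr38 lay just outside it.

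**Figure D1:**
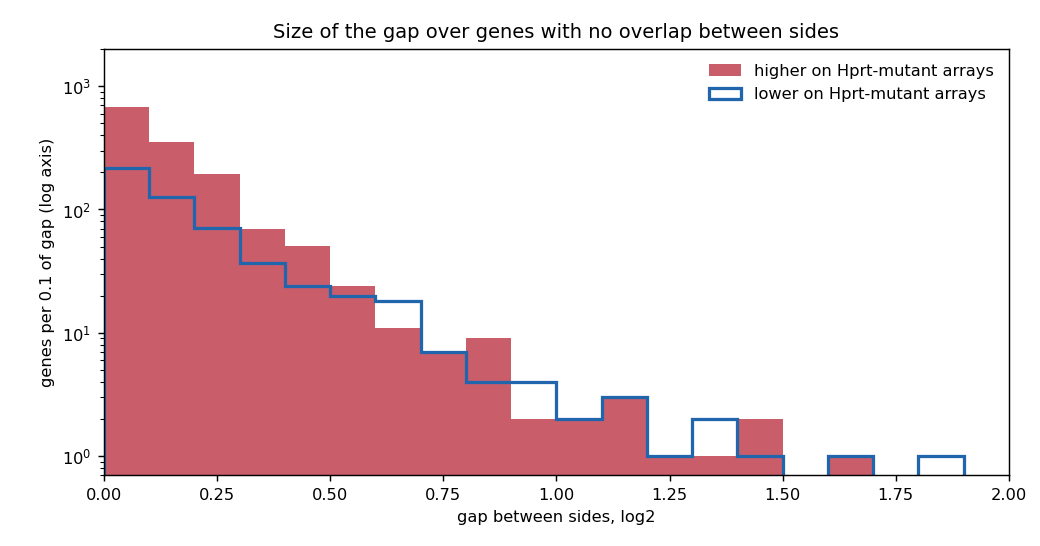
Histogram of the gap between sides (x axis, log2 intensity) over the separated genes above the filter, with the number of genes per bin on a log y axis, for genes higher (filled) and lower (outline) on Hprt-mutant arrays. Counts fall steeply with size in both directions, from median gaps of 0.09 and 0.12 to the largest gaps of 1.67 and 1.85.

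The line is the unit that carries the Hprt mutation, so the test of the sides compared 2 line means with 2 line means (limma, two-sided, Benjamini-Hochberg adjustment). It called 0 of 13819 genes (0.0%). At an unadjusted p under 0.05 there were 235 genes, and the smallest adjusted p was 0.997. Treating the line as a random block on 8 arrays also called 0 genes, with 598 at an unadjusted p under 0.05. With 4 line means and the spread between arrays of a line, which asks only whether these particular lines differ, 8127 genes passed (58.8%), 5080 higher (36.8%) and 3047 lower (22.0%), a split that cyclic loess turned to 3754 higher and 4077 lower. An exact permutation test of 2 against 2 lines cannot go below p = 0.333. No difference between the sides given here therefore passed a test with lines as replicates, and "higher" and "lower" describe the arrays.

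Within pairs of lines the arrays give a second view. The trap line was compared with the exon 2 mutant, both with a Gtf2i mutation, and the Hprt knockout with wild-type, which have none (limma with 4 line means, Benjamini-Hochberg adjustment). The first pair differed in 6798 genes (49.2%), of which 3412 were higher (24.7%) and 3386 lower (24.5%) in the trap line. The second differed in 9876 genes (71.5%), with 6409 higher (46.4%) and 3467 lower (25.1%) in the Hprt knockout. These p-values measure only the spread between 2 arrays of a line, labelled as biological replicates, and not the spread between lines. For a separated gene the direction in both pairs is fixed by the rule, so its pair differences describe size alone.

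The targeted gene itself was read on 1 probe set and was among the lower genes. Hprt had log2 intensities of 10.05 and 10.02 on Hprt knockout arrays and 10.76 and 10.72 on trap arrays, against 12.25 and 12.25 on exon 2 mutant arrays and 12.09 and 12.08 on wild-type arrays. Both mutant lines thus lay below both intact lines on every array, with a gap of -1.32. The side means were 10.39 ± 0.41 and 12.17 ± 0.10 (SD over 4 arrays each), and the difference of line means was -1.78 ± 0.31 (SE, 95% confidence interval -2.65 to -0.90). With lines as replicates limma gave it an adjusted p of 0.997. The signal in the mutant lines stayed far above the filter level of 5.35 on average. Where its probes lie relative to the mutations was not analysed here. Gtf2i overlapped between the sides, at 10.92 and 10.89 on Hprt knockout arrays and 10.11 and 10.07 on trap arrays, against 10.45 and 10.51 on exon 2 mutant arrays and 10.10 and 10.14 on wild-type arrays.

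Of 21 purine salvage and interconversion genes, Hprt included, 6 others were separated, all higher (28.6%, against 10.5% of all genes above the filter). Adk, adenosine kinase, which makes AMP from adenosine, had the widest gap of these. It read 11.98 and 11.97 on Hprt knockout arrays and 11.41 and 11.51 on trap arrays, against 11.04 and 10.90 on exon 2 mutant arrays and 11.03 and 11.11 on wild-type arrays, a gap of 0.30. A second probe set was separated as well, by 0.38, and the other 2 above the filter overlapped. Aprt, which salvages adenine, read 11.96 and 12.01 on Hprt knockout arrays and 11.95 and 12.03 on trap arrays, against 11.74 and 11.76 on exon 2 mutant arrays and 11.76 and 11.75 on wild-type arrays. Both lines of a side lay at nearly the same level, and the gap was 0.19, with a second probe set at 0.22. The other 4 had gaps of 0.01 to 0.02: Nt5c2, a nucleotidase that acts on IMP and GMP, Adss, which starts the step from IMP to AMP, Pnp, which releases hypoxanthine and guanine from nucleosides, and Prps2, a synthase of phosphoribosyl pyrophosphate. Of these 6 genes 3 remained higher under cyclic loess. Without the Hprt knockout line the rule is easier to meet, with 22.1% of all genes above the filter higher and 13.7% lower, and 9 genes of the list were higher and 4 lower. By the rule, the 9 include the 6 genes above and the 4 include Hprt.

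The breakdown enzymes were not separated. Gda, guanine deaminase, averaged 5.25 in the Hprt knockout, with 10.26 in the trap line, against 8.32 in the exon 2 mutant and 9.17 in wild-type. Xdh, xanthine dehydrogenase, averaged 4.35 in the Hprt knockout, with 8.27 in the trap line, against 7.20 in the exon 2 mutant and 7.78 in wild-type. For both genes the trap line was the highest and the Hprt knockout the lowest. Over the feeder markers the Hprt knockout was the lowest too, but wild-type was the highest. The part of the feeder level in these genes was not tested.

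None of 5 de novo purine synthesis genes was separated, where 14.6% of all genes above the filter were. Gart, which carries out several steps of the route, averaged 11.85 in the Hprt knockout, with 10.58 in the trap line, against 10.89 in the exon 2 mutant and 10.46 in wild-type. Ppat, the enzyme of the committed step, averaged 10.67 in the Hprt knockout, with 10.39 in the trap line, against 10.43 in the exon 2 mutant and 10.14 in wild-type. All 5 rose in the Hprt knockout against wild-type, where 46.4% of all genes rose, while 0 rose and 3 fell in the trap line against the exon 2 mutant, where 24.5% of all genes fell (limma, pair fits). The pairs thus gave opposite calls for Gart, Pfas and Atic. Among 11 genes of one-carbon and serine metabolism, which supplies carbons for purine synthesis, Aldh1l2 alone was separated (9.09% lower, against 4.01% of all genes above the filter). It encodes a mitochondrial enzyme that oxidises formyl-tetrahydrofolate. Its log2 intensity was 6.53 and 6.38 on Hprt knockout arrays and 7.42 and 7.31 on trap arrays, against 8.45 and 8.40 on exon 2 mutant arrays and 8.08 and 8.12 on wild-type arrays, a gap of -0.66.

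Of the 23 gene lists, hypoxia and glycolysis had the most separated genes in the lower direction. This list holds glycolytic enzymes and other genes that the hypoxia-inducible factor HIF1 is known to induce. Its factors bind DNA at a short core, of which only the spelling ACGTG was searched here. Promoters of 4 of the lower genes are shown because this word lies in each: P4ha1 and P4ha2, the catalytic subunits of collagen prolyl hydroxylase, Ldha, the lactate dehydrogenase of glycolytic cells, and Pgk1, phosphoglycerate kinase. Each is the 250 bases before the annotated start, 5′ to 3′, from RefSeq (GRCm38.p6, plus strand), with the word in capitals as ACGTG or, on the opposite strand, CACGT. The spellings overlap where CACGTG is written.
P4ha1 (chr10:59323046-59323295): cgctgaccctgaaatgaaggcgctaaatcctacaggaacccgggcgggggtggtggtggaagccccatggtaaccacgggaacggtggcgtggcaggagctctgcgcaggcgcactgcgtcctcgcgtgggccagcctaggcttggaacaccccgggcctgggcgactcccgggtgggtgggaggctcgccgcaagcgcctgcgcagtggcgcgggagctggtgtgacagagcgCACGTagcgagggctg
P4ha2 (chr11:54100674-54100923): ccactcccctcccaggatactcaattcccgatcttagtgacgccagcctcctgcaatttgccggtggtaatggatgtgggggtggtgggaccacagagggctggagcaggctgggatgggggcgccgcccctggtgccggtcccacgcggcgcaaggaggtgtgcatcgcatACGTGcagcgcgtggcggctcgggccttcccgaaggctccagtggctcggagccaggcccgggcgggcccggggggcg
Ldha (chr7:46845554-46845803): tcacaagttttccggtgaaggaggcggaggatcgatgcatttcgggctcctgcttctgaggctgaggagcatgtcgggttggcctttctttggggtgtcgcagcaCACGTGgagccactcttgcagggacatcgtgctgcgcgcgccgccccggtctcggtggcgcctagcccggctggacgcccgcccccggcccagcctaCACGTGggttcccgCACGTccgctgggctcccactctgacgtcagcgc
Pgk1 (chrX:106186850-106187099): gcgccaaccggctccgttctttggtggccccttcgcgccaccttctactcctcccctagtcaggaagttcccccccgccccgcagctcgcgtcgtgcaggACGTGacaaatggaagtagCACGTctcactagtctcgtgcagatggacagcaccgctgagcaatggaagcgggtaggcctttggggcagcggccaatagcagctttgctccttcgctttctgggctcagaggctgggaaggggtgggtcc
The word lay 16 bases before the start in P4ha1 and 78 bases before it in P4ha2. Ldha held 5 matches when both strands are counted, at 145, 144, 48, 47 and 34 bases, and Pgk1 held 2, at 150 and 131 bases. Over all promoters given, 5444 of 32851 (16.6%) held it, and 4998 of 27025 genes (18.5%) held it in at least 1 promoter. Of the list, 9 of 11 lower genes had it, all but Adm and Tpi1, against 5 of 10 overlapping genes with a promoter. The list was made of genes that HIF1 is known to induce, so its share cannot be read against that of all genes. The difference between lower and overlapping genes was not tested. A match is a description of the letters in this window and not a binding site.

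On the arrays, 11 of 22 genes of the list were lower on the Hprt-mutant side and 0 higher (50.0% lower, against 4.01% of all genes above the filter). With cyclic loess 12 were lower, where 6.14% of all genes above the filter were. The median difference of side means over the list was -0.58, against 0.07 over all tested genes. P4ha1 read 7.70 and 7.70 on Hprt knockout arrays and 9.04 and 9.04 on trap arrays, against 9.62 and 9.65 on exon 2 mutant arrays and 9.57 and 9.55 on wild-type arrays. The 4 intact arrays lay close together, with the trap arrays 0.51 below the lowest of them and the Hprt knockout further down. A second probe set of P4ha1 overlapped, with a side difference of -0.64. P4ha2 read 8.47 and 8.44 on Hprt knockout arrays and 8.94 and 8.92 on trap arrays, against 9.29 and 9.24 on exon 2 mutant arrays and 9.63 and 9.76 on wild-type arrays, a gap of -0.30.

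The secreted factors of the list had its widest gaps. Vegfa, the vascular growth factor, read 7.53 and 7.06 on Hprt knockout arrays and 7.50 and 7.67 on trap arrays, against 8.73 and 8.55 on exon 2 mutant arrays and 9.26 and 9.15 on wild-type arrays. Both mutant lines were about alike, with a gap of -0.88, although a second probe set of Vegfa overlapped with a side difference of -0.20. Adm, the vasodilator peptide adrenomedullin, read 6.61 and 6.55 on Hprt knockout arrays and 8.62 and 8.65 on trap arrays, against 9.40 and 9.41 on exon 2 mutant arrays and 10.27 and 10.27 on wild-type arrays. Its gap was -0.75, and its second probe set was separated by -0.83. Here the Hprt knockout stood well below the trap line, so the pairs differed by -3.69 ± 0.05 for Hprt knockout minus wild-type and by -0.77 ± 0.05 for trap minus exon 2 mutant.

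The glycolytic enzymes had narrower gaps. Ldha read 12.46 and 12.49 on Hprt knockout arrays and 12.49 and 12.43 on trap arrays, against 13.07 and 13.12 on exon 2 mutant arrays and 12.65 and 12.67 on wild-type arrays, a gap of -0.16. Pgk1 read 12.57 and 12.59 on Hprt knockout arrays and 12.73 and 12.70 on trap arrays, against 13.52 and 13.56 on exon 2 mutant arrays and 12.97 and 12.94 on wild-type arrays, a gap of -0.20. Tpi1, triosephosphate isomerase, read 11.28 and 11.29 on Hprt knockout arrays and 11.82 and 11.82 on trap arrays, against 12.69 and 12.72 on exon 2 mutant arrays and 12.12 and 12.09 on wild-type arrays, a gap of -0.27. In all of these the exon 2 mutant was the highest line.

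The exon 2 mutant was also the highest line for the remaining lower genes. Bnip3, a mitophagy receptor, read 9.03 and 9.11 on Hprt knockout arrays and 9.53 and 9.44 on trap arrays, against 11.70 and 11.79 on exon 2 mutant arrays and 9.62 and 9.60 on wild-type arrays. Its gap of -0.07 separated the trap line from wild-type only narrowly, and the exon 2 mutant lay far above all others. Car9, a carbonic anhydrase of the cell surface, averaged 4.41 in the Hprt knockout, with 4.70 in the trap line, against 6.19 in the exon 2 mutant and 4.96 in wild-type, with a gap of -0.22. It passed the filter through the exon 2 mutant alone, and the other 3 lines lay below the filter level, so its gap lies within dim signal. The count of lower genes in the list nevertheless includes Car9. Egln1, the prolyl hydroxylase that marks HIF for destruction, had a gap of -0.08, and Ankrd37 one of -0.19.

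The sides overlapped for glucose uptake. Slc2a1, the glucose transporter GLUT1, averaged 12.78 in the Hprt knockout, with 11.51 in the trap line, against 12.48 in the exon 2 mutant and 11.80 in wild-type. It rose by 0.98 in the Hprt knockout against wild-type (limma, adjusted p = 1.71e-05) and fell by 0.97 in the trap line against the exon 2 mutant (adjusted p = 8.7e-05). Over the whole list 2 genes rose and 20 fell in the trap line against the exon 2 mutant, where 24.5% of all genes fell, and 4 rose and 15 fell in the Hprt knockout against wild-type, where 25.1% fell. Without the Hprt knockout line, the line that stands apart in feeder markers, 17 of 22 genes were lower and 1 higher, where 13.7% of all genes were lower and 22.1% higher. Without the exon 2 mutant line 12 were lower and 1 higher, where 15.3% of all genes were lower and 31.5% higher. By the rule, the 17 and the 12 each include the 11 genes of the list that were lower with every line kept. Neither count is therefore a separate check of those 11 genes.

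Among p53 target genes 7 of 16 were higher on the Hprt-mutant side (43.8%, against 10.5% of all genes above the filter) and 0 lower, with a list median of 0.37. Under cyclic loess 4 were higher, where 8.14% of all genes above the filter were. p53 switches on these genes after DNA damage and other stresses. Perp, an adhesion and cell death gene, had the widest gap. It read 9.98 and 9.85 on Hprt knockout arrays and 9.98 and 10.08 on trap arrays, against 8.39 and 8.15 on exon 2 mutant arrays and 8.94 and 9.04 on wild-type arrays. The 4 mutant arrays lay close together and 0.81 above the highest intact array. Mdm2, the ubiquitin ligase that restrains p53, read 11.04 and 11.00 on Hprt knockout arrays and 11.05 and 11.15 on trap arrays, against 10.50 and 10.50 on exon 2 mutant arrays and 10.26 and 10.31 on wild-type arrays. Its gap was 0.49, and a second probe set was separated by 0.66. Sesn1, a stress gene that acts on growth signalling, read 8.65 and 8.60 on Hprt knockout arrays and 9.01 and 8.90 on trap arrays, against 8.18 and 8.26 on exon 2 mutant arrays and 8.08 and 8.08 on wild-type arrays. Its gap was 0.34, and 2 further probe sets were separated by 0.19 and 0.43.

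The remaining 4 had narrow gaps, with 0.09 for Pmaip1, a death-inducing member of the BCL2 family, 0.07 for the death receptor Tnfrsf10b, 0.05 for Trp53inp1, and less than 0.01 for Aen. Some of the best known targets overlapped. Cdkn1a, the cell cycle inhibitor p21, averaged 10.87 in the Hprt knockout, with 12.17 in the trap line, against 11.74 in the exon 2 mutant and 12.06 in wild-type. Fas, a death receptor, averaged 6.04 in the Hprt knockout, with 9.02 in the trap line, against 7.78 in the exon 2 mutant and 9.09 in wild-type, and so was lowest where feeder markers were lowest. In the pair fits 12 genes of the list rose and 1 fell in the trap line against the exon 2 mutant (24.7% of all genes rose), and 9 rose and 4 fell in the Hprt knockout against wild-type (46.4% of all genes rose). Without the Hprt knockout line 12 of 16 were higher and 0 lower (22.1% higher and 13.7% lower over all genes above the filter). The 12 include, by the rule, every gene of the list separated on all 8 arrays.

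The separated respiratory chain genes were higher by small amounts. Of 18 subunits and carriers 9 were higher (50.0%, against 10.5% of all genes above the filter) and 0 lower, with a list median of 0.17. With cyclic loess 5 were higher, where 8.14% of all genes above the filter were. Ndufs1, a large subunit of complex I, read 11.24 and 11.16 on Hprt knockout arrays and 10.90 and 10.94 on trap arrays, against 10.74 and 10.78 on exon 2 mutant arrays and 10.50 and 10.58 on wild-type arrays, a gap of 0.12. Ndufa4, tied to complex IV, read 12.78 and 12.80 on Hprt knockout arrays and 12.66 and 12.65 on trap arrays, against 12.44 and 12.53 on exon 2 mutant arrays and 12.45 and 12.44 on wild-type arrays, also a gap of 0.12. Both genes were highest in the Hprt knockout, and the trap line lay close above the intact lines. Ndufa1, another complex I subunit, had a gap of 0.10, and Sdha, the flavoprotein of complex II, one of 0.09 that its second probe set did not share (side difference -0.01). Sdhb, Uqcrfs1, Cox4i1, Atp5g1 and Cox7a2 had gaps of 0.05 or less. The pairs were unlike: 17 of 18 genes rose in the Hprt knockout against wild-type (46.4% of all genes rose), while 1 rose and 2 fell in the trap line against the exon 2 mutant. Without the Hprt knockout line 9 were higher, the same 9 by the rule, and 3 lower (22.1% higher and 13.7% lower over all genes above the filter).

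**Figure D2:**
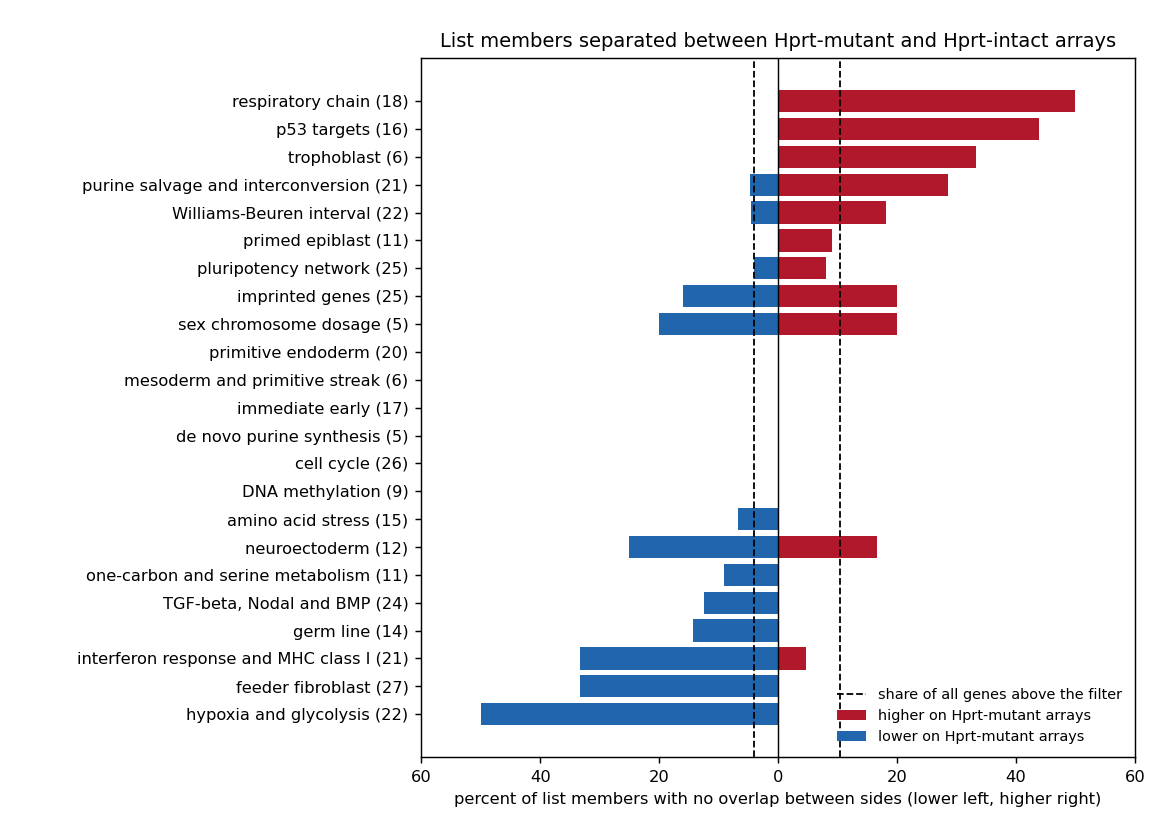
Share of each gene list that was separated between sides (x axis, percent of members above the filter), to the right for members higher and to the left for members lower on Hprt-mutant arrays, with the number of members in brackets and dashed lines at the shares of all genes above the filter, 10.5% higher and 4.01% lower. Respiratory chain genes and p53 targets have the longest bars to the right at 50.0% and 43.8%, and hypoxia and glycolysis genes the longest to the left at 50.0%.

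The genes with the widest gaps were mostly outside these lists. Nlrp4f, a member of the NLRP family expressed in oocytes, led the higher genes. Its log2 intensity was 9.11 and 9.14 on Hprt knockout arrays and 8.62 and 8.71 on trap arrays, against 6.95 and 6.89 on exon 2 mutant arrays and 6.29 and 6.47 on wild-type arrays. The gap of 1.67 was larger than the range within either side. Cbr3, a carbonyl reductase, came next. It read 12.26 and 12.33 on Hprt knockout arrays and 10.87 and 10.86 on trap arrays, against 9.05 and 9.13 on exon 2 mutant arrays and 9.40 and 9.33 on wild-type arrays. The gap was 1.46, with the Hprt knockout well above the trap line. Gpx2, a glutathione peroxidase, read 9.36 and 9.39 on Hprt knockout arrays and 9.89 and 9.71 on trap arrays, against 7.94 and 7.97 on exon 2 mutant arrays and 7.68 and 7.80 on wild-type arrays, a gap of 1.39. Both Cbr3 and Gpx2 are known targets of the oxidative stress factor NRF2.

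Metabolic genes were also among the higher ones. Fbp1, fructose-bisphosphatase of gluconeogenesis, read 7.33 and 7.67 on Hprt knockout arrays and 6.83 and 6.59 on trap arrays, against 5.34 and 5.23 on exon 2 mutant arrays and 5.33 and 5.00 on wild-type arrays. The intact lines lay around the filter level, and the gap was 1.24. Ckmt1, mitochondrial creatine kinase, read 7.43 and 7.18 on Hprt knockout arrays and 7.53 and 7.61 on trap arrays, against 5.91 and 6.04 on exon 2 mutant arrays and 5.50 and 5.71 on wild-type arrays. Its gap was 1.15, and a second probe set was separated by 0.84. Car2, a cytosolic carbonic anhydrase, read 11.75 and 11.74 on Hprt knockout arrays and 11.24 and 11.20 on trap arrays, against 10.14 and 10.19 on exon 2 mutant arrays and 10.27 and 10.28 on wild-type arrays, a gap of 0.92. These 3 genes were higher on every mutant array by more than the spread within either side.

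Further named genes had gaps of 0.88 to 1.12 in the higher direction. Gna15, a G protein alpha subunit, read 7.35 and 7.44 on Hprt knockout arrays and 7.40 and 7.38 on trap arrays, against 6.17 and 6.02 on exon 2 mutant arrays and 6.23 and 6.13 on wild-type arrays. Both mutant lines were at nearly the same level, with a gap of 1.12 and a side SD of 0.04 on the mutant and 0.09 on the intact side. Stmn3, a stathmin that acts on microtubules, had a gap of 1.11 on each of its probe sets, with line means of 7.73 in the Hprt knockout, with 8.05 in the trap line, against 6.51 in the exon 2 mutant and 6.48 in wild-type. Scn3b, a beta subunit of sodium channels, had a gap of 1.04 on its brightest probe set, and Crmp1, a mediator of semaphorin signalling, one of 0.93. Crmp1 read 9.53 and 9.56 on Hprt knockout arrays and 9.13 and 9.06 on trap arrays, against 8.14 and 8.05 on exon 2 mutant arrays and 7.17 and 7.16 on wild-type arrays. Spink1, a trypsin inhibitor, had a gap of 1.06, and Cyyr1 one of 0.88. A clone-named gene on the X chromosome, 4933402E13Rik, lay outside the naming rule and was chosen after its values were seen, with a gap of 1.41.

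**Figure D3:**
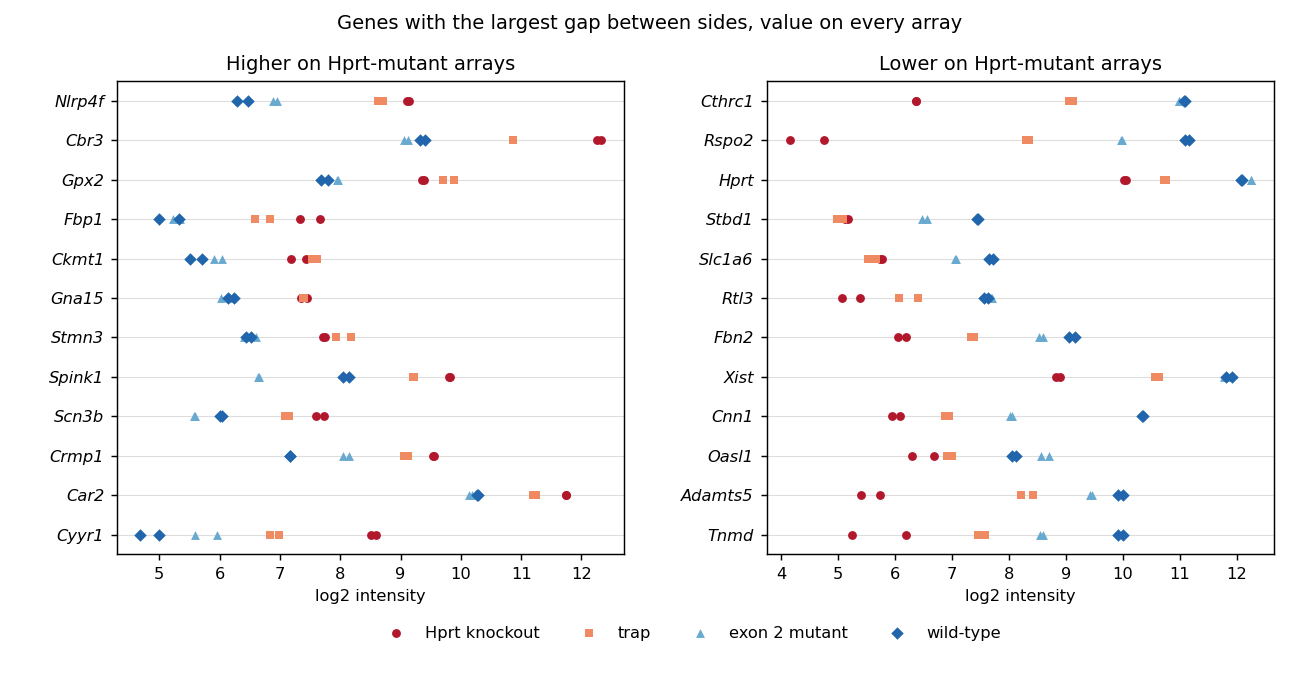
Log2 intensity (x axis) on each of the 8 arrays for the 12 named genes with the largest gap in each direction, higher on Hprt-mutant arrays on the left and lower on the right, with a symbol for each line. In every row the Hprt knockout and trap arrays lie on one side of the exon 2 mutant and wild-type arrays, and in Cthrc1, Rspo2, Adamts5 and Tnmd the Hprt knockout lies far below the trap line.

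Cthrc1 and Rspo2 had the widest gaps in the lower direction. Cthrc1, a secreted collagen-associated protein, read 6.37 and 6.37 on Hprt knockout arrays and 9.13 and 9.05 on trap arrays, against 10.99 and 10.98 on exon 2 mutant arrays and 11.10 and 11.07 on wild-type arrays. The gap was -1.85, and the Hprt knockout lay a further step below the trap line. Rspo2, a Wnt agonist, read 4.15 and 4.76 on Hprt knockout arrays and 8.30 and 8.35 on trap arrays, against 9.98 and 9.97 on exon 2 mutant arrays and 11.09 and 11.16 on wild-type arrays, a gap of -1.63. Its second probe set overlapped, with a side difference of -0.05. Adamts5, an aggrecan-cleaving protease, had a gap of -0.99 and 2 further probe sets separated by -1.16 and -0.54. Cnn1, a smooth muscle calponin, had a gap of -1.08, Tnmd, a tendon membrane protein, one of -0.96, and Fbn2, a fibrillin of elastic microfibrils, one of -1.14. In these 6 genes the order of the lines was Hprt knockout, trap, exon 2 mutant and wild-type from low to high.

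Feeder markers were also lowest in the Hprt knockout. Of 27 feeder fibroblast markers 9 were lower on the Hprt-mutant side (33.3%, against 4.01% of all genes above the filter) and 0 higher. With cyclic loess 9 were lower, where 6.14% of all genes above the filter were. Col1a1 read 6.43 and 6.53 on Hprt knockout arrays and 11.00 and 10.97 on trap arrays, against 11.80 and 11.84 on exon 2 mutant arrays and 12.18 and 12.22 on wild-type arrays, a gap of -0.80. The other separated markers were Col5a1 (-0.49), Acta2 (-0.40), Tagln (-0.34), Col6a2 (-0.32), Col5a2 (-0.26), Col1a2 (-0.19), Col6a1 (-0.17) and Col3a1 (-0.07). All 27 fell in the Hprt knockout against wild-type (25.1% of all genes fell). In the trap line against the exon 2 mutant 14 rose and 7 fell, among the rises S100a4, Dcn and Mmp3. Without the Hprt knockout line 7 markers were higher and 9 lower, the same 9 by the rule (22.1% higher and 13.7% lower over all genes above the filter). In trap minus exon 2 mutant, Cthrc1 differed by -1.89 ± 0.05 and Rspo2 by -1.65 ± 0.17. Among the feeder markers Col1a1 differed by -0.84 ± 0.06 and Acta2 by -0.47 ± 0.07 in that pair, while 14 of the 27 rose. The part of the feeder level in Cthrc1, Rspo2, Adamts5, Cnn1, Tnmd and Fbn2 was not tested.

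Other lower genes were less far apart between the mutant lines than Rspo2 and Cthrc1. Stbd1, a glycogen-binding protein, read 5.12 and 5.17 on Hprt knockout arrays and 4.98 and 5.08 on trap arrays, against 6.56 and 6.48 on exon 2 mutant arrays and 7.44 and 7.46 on wild-type arrays. The mutant arrays lay below the filter level, and the gap was -1.31. Slc1a6, a glutamate transporter, read 5.78 and 5.74 on Hprt knockout arrays and 5.52 and 5.66 on trap arrays, against 7.07 and 7.06 on exon 2 mutant arrays and 7.65 and 7.72 on wild-type arrays, a gap of -1.28. Rtl3, a gene of retrotransposon origin on the X chromosome, read 5.07 and 5.39 on Hprt knockout arrays and 6.41 and 6.07 on trap arrays, against 7.71 and 7.68 on exon 2 mutant arrays and 7.63 and 7.56 on wild-type arrays. Its intact arrays lay close together, while the Hprt knockout lay below the trap line, and its gap was -1.15.

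Interferon response and MHC class I genes were lower in part. Of 21 genes 7 were lower (33.3%, against 4.01% of all genes above the filter) and 1 higher, counts that were alike under cyclic loess. Oasl1, which lay outside this list, had the widest gap among antiviral genes. It read 6.30 and 6.68 on Hprt knockout arrays and 7.00 and 6.92 on trap arrays, against 8.70 and 8.56 on exon 2 mutant arrays and 8.12 and 8.05 on wild-type arrays, a gap of -1.06. Rsad2, the antiviral enzyme viperin, read 6.33 and 6.63 on Hprt knockout arrays and 8.77 and 8.66 on trap arrays, against 9.49 and 9.47 on exon 2 mutant arrays and 9.61 and 9.76 on wild-type arrays, a gap of -0.70. Usp18, which removes ISG15 from proteins and damps interferon signalling, read 4.08 and 4.53 on Hprt knockout arrays and 10.76 and 10.76 on trap arrays, against 11.27 and 11.31 on exon 2 mutant arrays and 11.98 and 11.91 on wild-type arrays, a gap of -0.51. The Hprt knockout arrays thus lay below the filter level for Usp18, while the trap line lay near the intact lines. Oas1a, a sensor of double-stranded RNA, had a gap of -0.57, Bst2, which tethers virions, one of -0.37, and Irf7, a transcription factor of the response, one of -0.34. Ifit3 and Psmb9 had gaps of -0.11 and -0.07, and Ifitm1, a membrane protein also known from stem and germ cells, was higher by a gap of 0.17.

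The MHC class I genes overlapped. B2m, the light chain of MHC class I, averaged 10.31 in the Hprt knockout, with 13.68 in the trap line, against 12.88 in the exon 2 mutant and 13.43 in wild-type. H2-K1 averaged 9.08 in the Hprt knockout, with 11.98 in the trap line, against 11.33 in the exon 2 mutant and 12.15 in wild-type. In the pair fits 5 of 21 genes rose and 7 fell in the trap line against the exon 2 mutant, where 24.7% of all genes rose and 24.5% fell. In the Hprt knockout against wild-type 1 rose and 19 fell, where 46.4% of all genes rose and 25.1% fell. Without the Hprt knockout line 2 were higher and 7 lower, the 7 being the same genes by the rule (22.1% higher and 13.7% lower over all genes above the filter). The feeder marker mean was lowest in the Hprt knockout too, and its part in these levels was not tested.

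Imprinted genes, which are expressed from a single parental allele, were separated in both directions, 5 higher and 4 lower of 25 (20.0% and 16.0%, against 10.5% and 4.01% of all genes above the filter), or 4 and 4 under cyclic loess. Plagl1, a zinc finger factor of an imprinted growth network, read 9.48 and 9.48 on Hprt knockout arrays and 10.02 and 10.08 on trap arrays, against 10.81 and 10.88 on exon 2 mutant arrays and 11.59 and 11.60 on wild-type arrays, a gap of -0.73. A second probe set of Plagl1 was separated by only -0.05. Cdkn1c, the growth inhibitor p57, read 9.35 and 9.36 on Hprt knockout arrays and 9.29 and 9.17 on trap arrays, against 8.58 and 8.56 on exon 2 mutant arrays and 8.16 and 8.32 on wild-type arrays, a gap of 0.59. Kcnq1ot1, the noncoding RNA of the same imprinted domain that represses Cdkn1c on the paternal allele, read 8.32 and 8.37 on Hprt knockout arrays and 8.07 and 7.98 on trap arrays, against 8.95 and 9.10 on exon 2 mutant arrays and 8.64 and 8.74 on wild-type arrays. Its gap was -0.27, opposite in direction to Cdkn1c, and 3 further probe sets were also lower, by gaps of -0.19, -0.33 and -0.06. Phlda2, from that domain too, was higher by a gap of 0.21.

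Meg3, a maternal noncoding RNA, read 11.93 and 11.91 on Hprt knockout arrays and 11.74 and 11.75 on trap arrays, against 12.41 and 12.50 on exon 2 mutant arrays and 12.38 and 12.42 on wild-type arrays. The gap was -0.45, and 4 further probe sets were lower by gaps of -0.43 to -0.76, while 6 overlapped. Rian and Mirg, from the same domain as Meg3, overlapped between the sides. Igf2, the imprinted growth factor, averaged 8.03 in the Hprt knockout, with 12.77 in the trap line, against 12.44 in the exon 2 mutant and 12.57 in wild-type, a pattern in which only the Hprt knockout stood apart. Feeder markers set that line apart too, and the part of the feeder level in Igf2 and Plagl1 was not tested.

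Of 5 sex chromosome genes 1 was lower and 1 higher (20.0% each, against 4.01% and 10.5% of all genes above the filter). The other 3, among them Eif2s3y and Kdm5d of the Y chromosome, overlapped. Xist, the RNA that coats and silences an X chromosome, read 8.82 and 8.89 on Hprt knockout arrays and 10.57 and 10.64 on trap arrays, against 11.85 and 11.78 on exon 2 mutant arrays and 11.91 and 11.82 on wild-type arrays. The gap was -1.14, and its other probe sets had gaps of -1.10 and -0.82. Uty, a gene of the Y chromosome, read 8.20 and 8.04 on Hprt knockout arrays and 7.20 and 7.70 on trap arrays, against 7.00 and 6.65 on exon 2 mutant arrays and 6.66 and 6.85 on wild-type arrays, a gap of 0.20. The feeder layer's own Xist was not measured apart from the stem cells, and its part in these levels was not tested.

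Pluripotency genes were mostly not separated, with 2 higher and 1 lower of 25, near the shares of all genes. Fgf4, the growth factor that stem cells secrete, was the exception in size. It read 11.74 and 11.75 on Hprt knockout arrays and 10.58 and 10.54 on trap arrays, against 9.76 and 9.70 on exon 2 mutant arrays and 9.78 and 9.74 on wild-type arrays. Both intact lines were at the same level, the gap was 0.76, and 3 further probe sets had gaps of 0.46 to 0.74. Prdm14, a regulator of the naive state, was higher by a gap of 0.10, and Nr5a2, a nuclear receptor that can drive Pou5f1, lower by one of -0.11. Nanog averaged 12.30 in the Hprt knockout, with 12.47 in the trap line, against 12.22 in the exon 2 mutant and 12.53 in wild-type.

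Some genes of differentiated fates were separated. Neurod1, a neurogenic factor, read 11.01 and 11.00 on Hprt knockout arrays and 8.12 and 8.17 on trap arrays, against 7.27 and 7.14 on exon 2 mutant arrays and 5.78 and 5.66 on wild-type arrays, a gap of 0.86 with every line at its own level. Zic1, a zinc finger factor of neural tissue, read 4.99 and 4.52 on Hprt knockout arrays and 8.75 and 8.69 on trap arrays, against 9.61 and 9.62 on exon 2 mutant arrays and 9.77 and 9.93 on wild-type arrays, a gap of -0.86. Its Hprt knockout arrays lay below the filter level. Feeder markers were lowest in that line too, and the part of the feeder level in Zic1 was not tested. The neuroectoderm list as a whole had 2 higher and 3 lower of 12, against 10.5% and 4.01% of all genes above the filter. Of 6 trophoblast genes, Ascl2 (0.15) and Krt7 (0.11) were higher (33.3%), and of 14 germ line genes Rhox5 (-0.37) and Tdrkh (-0.13) were lower (14.3%). Rhox5, a homeobox gene of the X chromosome, lay within 11.42 to 11.46 on the mutant arrays, against 11.83 to 11.95 on the intact arrays.

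In the Williams-Beuren interval, the region around Gtf2i, 4 genes were higher and 1 lower of 22 (18.2% and 4.55%, against 10.5% and 4.01% of all genes above the filter). Cldn4, a claudin of tight junctions, read 10.41 and 10.27 on Hprt knockout arrays and 8.46 and 8.59 on trap arrays, against 7.98 and 7.88 on exon 2 mutant arrays and 6.99 and 7.22 on wild-type arrays, a gap of 0.49. Bud23 (0.22), Abhd11 (0.19) and Dnajc30 (0.01) had smaller gaps, and Stx1a was lower by -0.02. Of 24 TGF-beta, Nodal and BMP genes 3 were lower (12.5%, against 4.01%), among them Tgfb2 (-0.26) and Smad7 (-0.22), and Atf5 was the single lower gene of 15 in amino acid stress, at -0.01. No gene was separated among 26 cell cycle, 20 primitive endoderm, 17 immediate early, 9 DNA methylation and 6 mesoderm genes, and of 11 primed epiblast genes Sox3 alone was. Over all genes above the filter 14.6% were separated, so few are to be found in the smaller lists.

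Because Hprt itself is mutated, the genes beside it on the X chromosome were examined. Hprt lies at chrX:52988078-53021660 (GRCm38.p6). Of the 10 nearest protein-coding genes on each side, 12 were above the filter and 3 of these were separated, where 14.6% of all genes above the filter were. The nearest neighbour, Phf6, averaged 8.29 in the Hprt knockout, with 8.38 in the trap line, against an average of 8.21 in the exon 2 mutant and arrays at 7.87 and 8.13 in wild-type, and the sides overlapped. Gpc3, a glypican, read 7.98 and 7.96 on Hprt knockout arrays and 8.12 and 8.20 on trap arrays, against 8.72 and 8.77 on exon 2 mutant arrays and 8.60 and 8.65 on wild-type arrays, a gap of -0.40. The clone-named 1700080O16Rik was lower by a gap of -0.92, and Ct55 was higher by 0.32. Hs6st2 and Gpc4 were lowest in the Hprt knockout alone. Ccdc160 averaged 8.62 in the Hprt knockout, with 6.86 in the trap line, against 8.45 in the exon 2 mutant and 5.14 in wild-type, so its order ran across the sides. Over the whole X chromosome 45 of 452 genes were higher (9.96%) and 27 lower (5.97%), against 10.5% and 4.01% of all genes above the filter.

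**Figure D4:**
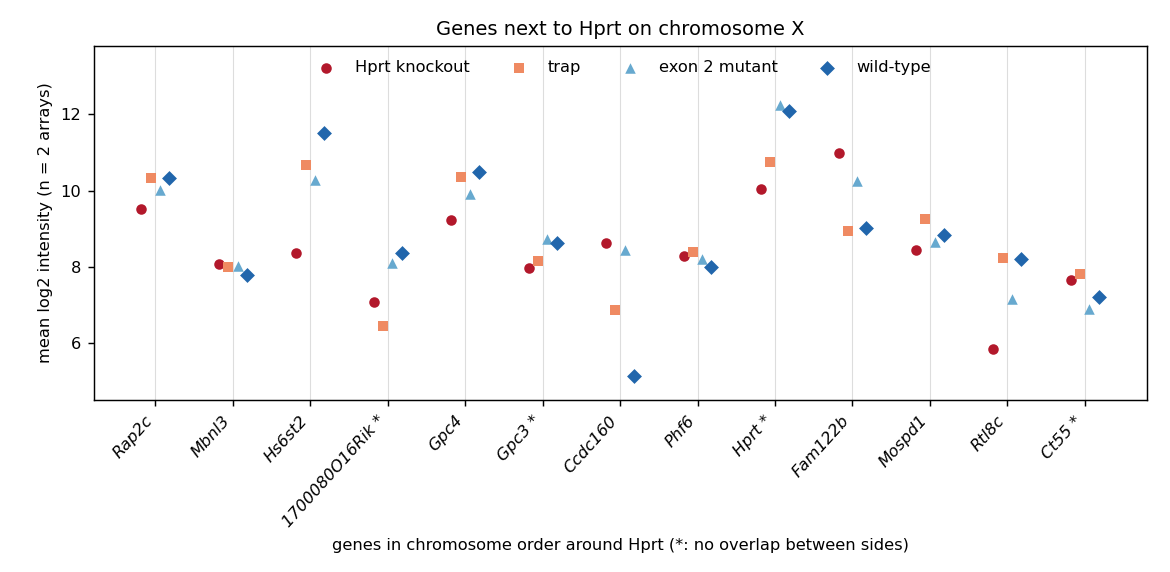
Mean log2 intensity of 2 arrays (y axis) in each line for Hprt and the measured genes around it on the X chromosome, in chromosome order (x axis), with an asterisk where the sides did not overlap. Hprt is lower in both mutant lines by a gap of -1.32, and of its 12 neighbours 1700080O16Rik, Gpc3 and Ct55 are separated, where 14.6% of all genes above the filter are.

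Other probe sets of the same genes gave a second reading of the same arrays. Of 642 higher genes with a second probe set above the filter, that probe set was also higher for 309 (48.1%) and lower for 8 (1.25%). Of 285 lower genes it was also lower for 125 (43.9%) and higher for 0. Among 5359 overlapping genes the second probe set was higher for 349 (6.51%) and lower for 147 (2.74%). Its side means differed in the same direction for 581 of the 642 higher genes and for 252 of the 285 lower ones. Among the 5359 overlapping genes its mean was higher on the Hprt-mutant side for 3251 and lower for 2108.

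Within the Hprt-mutant side the lines were unlike. The Hprt knockout lay further from the intact mean than the trap line did for 1074 of 1457 higher genes and 428 of 554 lower ones. This share was not computed over all genes above the filter, so these counts describe the separated genes alone. Over all tested genes the median range was 0.47 log2 on the Hprt-mutant side and 0.37 on the Hprt-intact side, and the mutant range was the larger for 8441 genes (61.1%). The difference between the pair contrasts, Hprt knockout minus wild-type less trap minus exon 2 mutant, passed for 9626 genes (69.7%; limma, adjusted p), 5889 of them positive (42.6%) and 3737 negative (27.0%). Splitting the same arrays by Gtf2i instead, with the exon 2 mutant and trap line against wild-type and the Hprt knockout, separated 1284 genes (9.29%), of which 587 were higher (4.25%) and 697 lower (5.04%) in the Gtf2i-mutant lines. The Hprt split separated 2011 (14.6%), and the difference between these counts was not tested.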

How the data were processed

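Total RNA of 8 mouse embryonic stem cell samples was hybridised to Affymetrix arrays. The deposited values are log2 intensities of 45101 probe sets, which the submitters' processing notes tie to RMA, with no version given in the sources used here. RMA adjusts background, normalizes arrays by quantiles and summarises probes, so a shift of most genes is not visible. Array medians were 5.96 to 6.02, and the number of arrays limits the precision. The platform annotation gave 1 symbol to 34945 probe sets, several to 932 and none to 9160, with 64 controls left out. Entrez ID linked 34741 of the single-symbol probe sets to the gene table (GRCm38.p6). They made 18193 genes, 9010 of them with several probe sets.

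Differences were fitted with limma 3.58.1 in R 4.3.3 on line means (2 residual degrees of freedom, 3.93 after moderation) and, for pairs of lines, on 4 line means with the spread between arrays (4, and 6.86 after moderation). P-values were two-sided, adjusted by Benjamini-Hochberg over 13819 genes, with a threshold of 0.05. The scripts were tested on simulated data. Deviations of arrays with the same replicate number correlated at -0.275 to 0.175 between lines, so the numbers did not pair the arrays.

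Named were Hprt, Gtf2i, the 12 largest gaps per direction above the filter without clone or predicted names, the measured genes among the 10 nearest on each side of Hprt, and up to 4 separated genes per list. Genes outside this rule are named from the 23 lists. The genes and the lists, which also hold cell type markers, were chosen with earlier results of these data known. Alternatives covered scaling, filter, probe set choice, replicate unit and leaving out arrays or lines.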

Additional observations from a re-analysis of the deposited data

Results flagged for a closer look

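Ndufa4 drew attention for an array far from the others of its side. Exon 2 mutant replicate 2 read 12.53, against 12.44 to 12.45 on the remaining Hprt-intact arrays, a share of the range (0.907) above Dixon's limit of 0.829 for 4 arrays. Chance passes this limit in about 1 of 20 groups of independent values. The 4 arrays come from 2 lines, so that rate does not hold here.

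For the other genes the Hprt contrast differed between the pairs of lines. The value is Hprt knockout minus wild-type less trap minus exon 2 mutant, on the log2 scale, and each passed limma's adjusted p for this term with a size of at least 1. A positive value means that Hprt knockout minus wild-type was above trap minus exon 2 mutant, whatever the sign of each. In Gtf2i, Ccdc160 and Fam122b the trap line lay below the exon 2 mutant (-0.39, -1.59 and -1.32) while the Hprt knockout lay above wild-type. In Rap2c, Hs6st2, Gpc4 and Rtl8c it lay above the exon 2 mutant (0.28, 0.41, 0.46 and 1.08) while the Hprt knockout lay below wild-type. The pairs thus went in opposite directions for these genes. Positive values were found for Gtf2i (1.18), Cbr3 (1.15), Crmp1 (1.38), Cyyr1 (2.58), Fgf4 (1.15), Prdm14 (1.17), Sox3 (1.10), Neurod1 (4.34) and Cldn4 (2.64), and next to Hprt for Ccdc160 (5.07) and Fam122b (3.31). Negative values were found for the feeder markers Col1a1 (-4.88), Col5a1 (-4.13), Acta2 (-3.15) and Tagln (-2.89) and for Cthrc1 (-2.82), Rspo2 (-5.01), Fbn2 (-1.78), Cnn1 (-3.20), Adamts5 (-3.29), Tnmd (-3.18) and Tgfb2 (-3.59). They were also found for the interferon genes Rsad2 (-2.44), Oas1a (-2.45), Usp18 (-7.11) and Bst2 (-1.62), for the neighbours of Hprt Rap2c (-1.08), Hs6st2 (-3.56), Gpc4 (-1.73) and Rtl8c (-3.46), and for Xist (-1.80), Zic1 (-4.21), Plagl1 (-1.32), Adm (-2.92) and P4ha1 (-1.26). The feeder marker mean was 7.25 in the Hprt knockout, with 11.74 in the trap line, and its part in these differences was not tested.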

How the results depend on the processing

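With lines as replicates 0 genes were called under every alternative run except 8 arrays taken as independent, which called 114 (84 higher, 30 lower) and counts the 2 arrays of a line as replicates of the mutation. At an unadjusted p under 0.05 there were 235 genes, and 231 to 247 when leaving out each array. Counting every probe set on its own gave 13332 calls with 4 line means, 10790 for trap minus exon 2 mutant, 16490 for Hprt knockout minus wild-type, 15942 for the difference of these contrasts and 4063 separated probe sets, since more features entered. Leaving out a line set 2 arrays against 4, and the genes without overlap came to 5596 without the Hprt knockout line, 9649 without the trap line, 7211 without the exon 2 mutant line and 5001 without the wild-type line. Leaving out single arrays gave 7228 to 7857, 5247 to 6658, 9077 to 10009 and 9033 to 9436 calls in the 4 fits above, and 2414 to 2844 genes without overlap. The replicate block gave 7737, 6333, 9620 and 9361 calls and moved no count by more than 1.5 times. Cyclic loess changed the split of higher against lower calls to 3754 and 4077 with 4 line means (as deposited 5080 and 3047), to 4709 and 4729 for Hprt knockout minus wild-type, to 4514 and 4864 for the difference of contrasts, and to 1254 and 922 for genes without overlap. Of the 1246 other settings over 86 named genes, 1090 kept the side difference within 1 SD, 154 moved it further and 2 reversed it, both on the second brightest probe set: Sdha to -0.01 and Acvr2a to 0.08. Dim probe sets, such as Car9 below the filter level in 3 lines, limit what the arrays can resolve, and the number of lines limits the test.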
